A study of Drosophila melanogaster with 120 samples.

Results

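Heads of 15-day-old unmated Drosophila melanogaster females were compared between 3 selection populations and 3 control populations. The heads were picked by their labels for tissue, age and regime, which gave 12 of the 120 arrays of the study, 6 of selection and 6 of control. Selection females came from populations bred for a longer reproductive lifespan, in which mating was delayed at first to 28 and later to 40 days of age. Control females came from populations mated at 14 days. Both kinds descend from 1 ancestral population of wild-caught females, carry no engineered allele and were kept at 25 °C with 12 h of light. RNA was taken after 35 generations, and each population gave 2 biological replicates, each on its own one-colour NimbleGen array. Mean levels of the 2 replicates were compared, so n is 3 populations per regime. One array of control population 3 has replicate 3 in its title and biological replicate 1 in its other label, which was followed here.

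Delayed mating selects on flies that still reproduce late in life, and such breeding is a classical way to obtain flies with slower reproductive ageing and longer life. The fly head holds the brain, the compound eyes, the antennae, muscle and a layer of fat body that surrounds the brain. In whole heads, fewer cells of a type and less RNA per cell cannot be told apart. Every level below is a log2 intensity, so that a difference of 1 is a 2-fold difference. Most of the 16637 transcripts measured are known here only by their FlyBase transcript number, and 16 could be tied to a gene symbol.

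The head samples carried a head profile. The mean level of 50 transcripts that were high in heads on days 5, 30 and 50 lay between 13.85 and 14.36 in the day-15 heads, against 8.26 to 8.91 in the day-15 abdomens. The mean of 50 abdomen-high transcripts lay between 7.94 and 8.39 in the day-15 heads, against 13.97 to 14.53 in the day-15 abdomens. None of the cell type markers listed for eye, brain or fat body could be tied to a transcript, so cell types were not checked.

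Selection population 3 replicate 1 and control population 2 replicate 2 stood apart from the other 10 arrays. Their median correlation with the other day-15 heads was 0.921 and 0.912, against 0.966 to 0.983 for the other 10. The replicates of selection population 3 correlated at 0.930 and those of control population 2 at 0.913, and the other 4 pairs between 0.966 and 0.990. The abdomen-high transcripts averaged 8.33 in the selection array and 8.39 in the control array, against 7.94 to 8.10 in the other 10 heads. Many of the values below are also given without these 2 arrays. Their part in a result was measured by leaving them out, and what sets them apart was not tested.

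**Figure D1:**
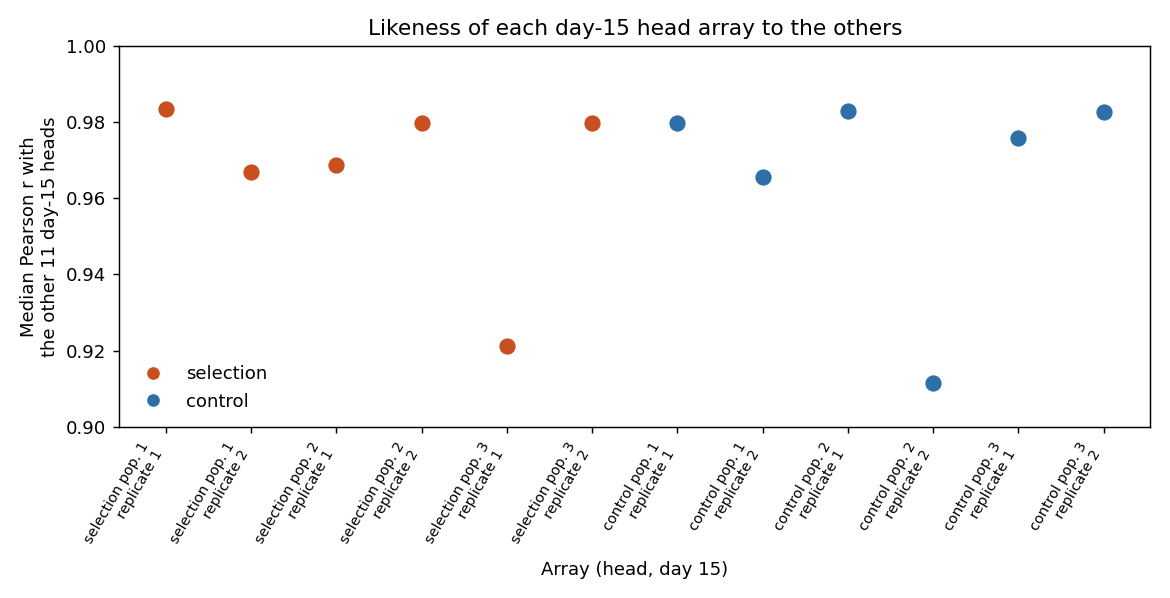
Median Pearson correlation of each day-15 head array with the other 11, over 16637 transcripts, for selection (orange) and control (blue) heads; the vertical axis starts at 0.90. Selection population 3 replicate 1 lies at 0.921 and control population 2 replicate 2 at 0.912, below the other 10 arrays.

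The first comparison asked which transcripts differed between selection and control heads at day 15. No transcript passed an adjusted p of 0.05 (limma, Benjamini-Hochberg over 16637 transcripts; 0%), and the smallest adjusted p was 0.9998. At an unadjusted p under 0.05 there were 263 transcripts (1.58%), 135 of them higher (0.811%) and 128 lower (0.769%) in selection heads. Without the 2 arrays that stood apart, again no transcript passed, the smallest adjusted p was 0.581, and 701 transcripts (4.21%) had an unadjusted p under 0.05, 393 of them higher (2.36%) and 308 lower (1.85%). In the same direction, 149 transcripts did so both with and without the 2 arrays. The count of 263 was 610 without selection population 3 replicate 1 alone, and 520, 449, 163 and 513 when selection population 1, selection population 3, control population 2 or control population 3 was left out.

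With all arrays, populations of 1 regime and replicates of 1 population varied more than the regimes did. Regime took 7.68% of the sum of squares with 1 degree of freedom, populations within regimes 41.8% with 4, and replicates within populations 50.5% with 6. The mean square per transcript was 0.147 for regime, 0.20 for populations and 0.161 for replicates. The median size of the difference was 0.133, and the median 95% interval reached 0.484 to either side of the estimate, or 0.360 without the 2 arrays. Transcripts are not independent replicates, and across them the regime differences taken from replicate 1 arrays correlated at 0.0187 with those from replicate 2 arrays, and 49.4% had the same sign. Each side of this correlation holds 1 of the 2 arrays that stood apart. The correlation, the sums of squares and the mean squares are given with all arrays only and were not computed without these 2 arrays. The 2 populations that hold them had the widest replicate spread. The median size of the replicate difference was 0.403 in selection population 3 and 0.471 in control population 2, against 0.166 to 0.259 in the other populations.

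FBtr0083768 had the smallest p of all transcripts. Its level in selection heads was 7.91 and 10.06 in population 1, 9.75 and 9.86 in population 2, and 10.97 and 9.52 in population 3. In control heads it was 8.01 and 8.06 in population 1, 7.93 and 8.01 in population 2, and 7.97 and 8.09 in population 3. Thus 5 of 6 selection arrays lay at 9.52 or higher, above all 6 control arrays, and replicate 1 of selection population 1 lay at the control level. The means were 9.68 ± 0.639 in selection and 8.01 ± 0.0372 in control (SD, n = 3), a log2 difference of 1.67 (SE 0.291, 95% interval 1.02 to 2.31, limma p 1.60e-04, adjusted p 0.9998). The difference was 1.44 without the 2 arrays.

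The same transcript was next read in the heads of days 1, 5, 30 and 50, arrays that played no part in its choice. There 15 of 24 selection heads lay above 8.39, the highest of all control heads of the study. That limit is itself a day-5 control head, so no control head could exceed it. The population means over these days were 8.50, 9.88 and 9.92 in selection populations 1, 2 and 3, against 8.04, 7.95 and 8.12 in control populations 1, 2 and 3. The difference was 1.40 (9.44 ± 0.812 in selection and 8.03 ± 0.0842 in control, SD, n = 3), with an exact permutation p of 0.1, the smallest that 3 against 3 populations allow, and a limma adjusted p of 0.283. The populations did not overlap, but they are the same 6 populations as on day 15.

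Selection heads lay on either side of a gap in this transcript. Over all 5 ages, 11 of the 30 selection heads lay at or under 8.50 and the other 19 between 9.41 and 11.37. Of the 10 heads of each selection population, 3 in population 1, 8 in population 2 and 9 in population 3 exceeded the highest control head. All 30 control heads lay between 7.83 and 8.39. In abdomens 19 of 30 selection arrays exceeded 8.39, against 1 of 30 control arrays, and the highest levels were 10.40 in selection and 9.00 in control. On day 15 itself all 6 selection abdomens exceeded 8.39, with levels of 8.50 to 9.50, against 7.98 to 9.00 in control abdomens. The gene of this transcript is not annotated in the sources used here.

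**Figure D2:**
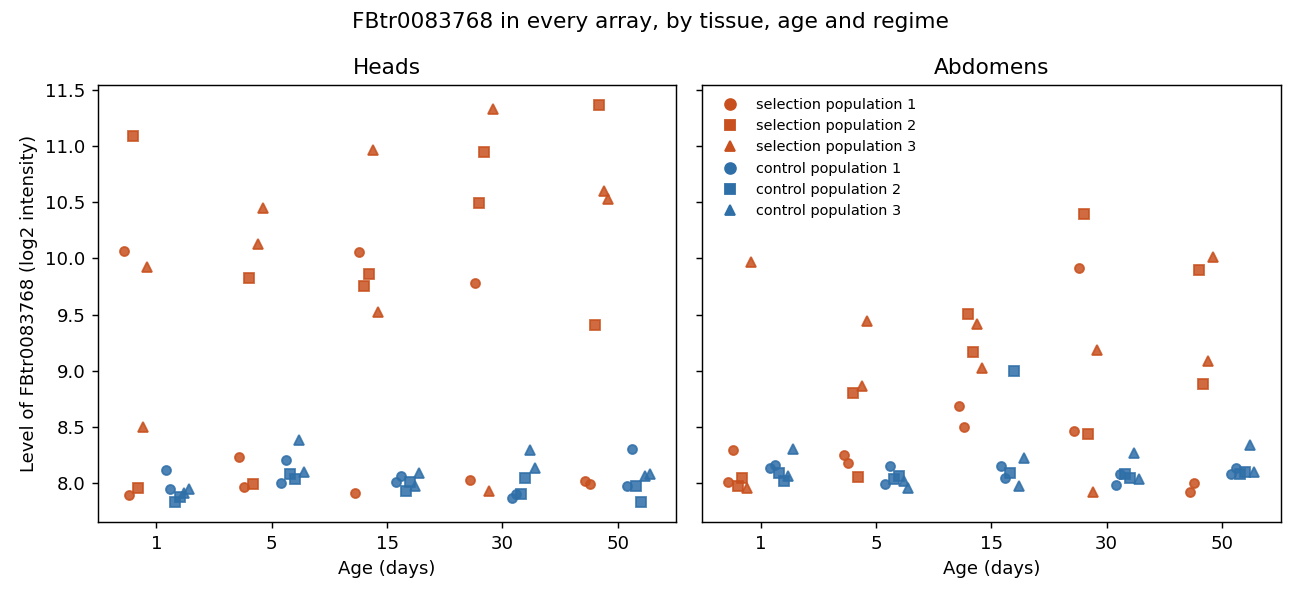
Level of FBtr0083768 (log2 intensity) in each of the 60 heads and 60 abdomens by age in days, with selection arrays (orange) left of control arrays (blue) and a symbol per population. All 30 control heads lie between 7.83 and 8.39, whereas 19 of the 30 selection heads lie between 9.41 and 11.37.

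The other 9 transcripts with the smallest p among those higher in selection had log2 differences between 0.47 and 0.89. FBtr0081085 was one of only 2 of the 20 transcripts named by p in which no selection array overlapped a control array. Its selection arrays lay at 12.13, 12.21, 12.32, 12.51, 12.44 and 12.32, against 11.76, 11.33, 11.97, 11.44, 11.09 and 12.13 in control, where the highest control array all but met the lowest selection array. The difference was 0.70 (SE 0.190, limma p 0.00374) and 0.60 without the 2 arrays. FBtr0082071, the second, took much of its size from them: it stood at 10.89 in selection population 3 replicate 1 and at 7.87 in control population 2 replicate 2, and its difference of 0.89 became 0.40 without them. In the other 10 arrays it lay between 9.21 and 9.69 in selection and between 8.76 and 9.14 in control, so those arrays did not overlap either.

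FBtr0075046 and FBtr0273227 also took much of their difference from these arrays. FBtr0075046 stood at 10.97 in selection population 3 replicate 1 and at 8.14 in control population 2 replicate 2, and its difference of 0.85 became 0.37 without them. FBtr0273227 stood at 9.40 in the same selection array, and its difference of 0.52 became 0.27. By contrast FBtr0082089 differed by 0.88 with all arrays and by 0.91 without the 2, and FBtr0112429 by 0.47 and 0.42. The selection arrays of FBtr0082089 ran from 9.95 to 11.73 and its control arrays from 9.35 to 10.20, with an overlap between them. FBtr0076396 differed by 0.86, but its replicates did not bear the same sign: the difference was -0.03 from replicate 1 arrays alone and 1.76 from replicate 2 arrays alone. It was 0.52 without the 2 arrays (limma p 0.133).

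FBtr0075084 (0.81; 9.86 ± 0.0337 in selection, 9.05 ± 0.0767 in control, SD, n = 3) and FBtr0073457 (0.63; 9.26 ± 0.151 in selection, 8.63 ± 0.0952 in control, SD, n = 3) complete the set, with differences of 0.56 and 0.41 once the 2 arrays were left out. Their population means lay close together within each regime. Single replicates spread more widely, from 9.36 to 10.35 in selection and from 8.44 to 9.65 in control for FBtr0075084, and these ranges overlapped.

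**Figure D3:**
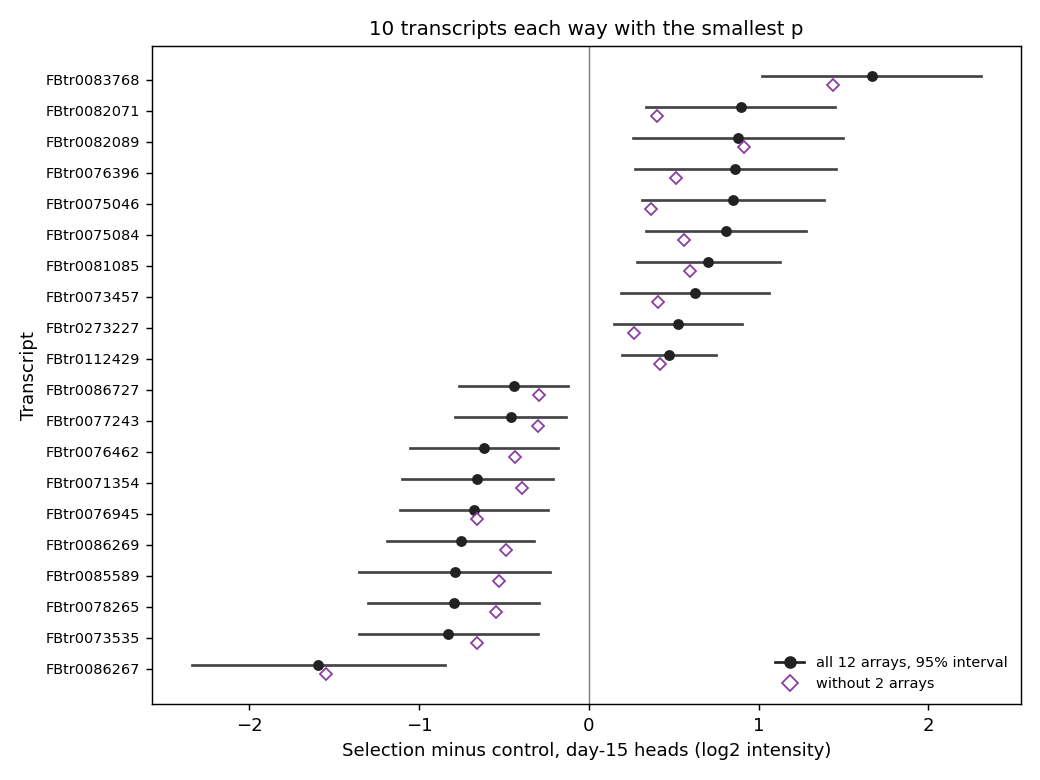
Log2 difference, selection minus control, of the 10 transcripts each way with the smallest p in day-15 heads; filled points and lines give the difference and its 95% interval with all 12 arrays, open diamonds the difference without the 2 arrays that stood apart. FBtr0083768 (1.67 and 1.44) and FBtr0086267 (-1.59 and -1.55) lie farthest from 0 in both settings.

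Among the transcripts lower in selection, FBtr0086267 had the smallest p. It stood at 8.64 and 9.26 in selection population 1, at 9.09 and 9.91 in population 2 and at 9.12 and 10.84 in population 3. In control heads it stood at 10.49 and 11.83 in population 1, at 12.24 and 10.78 in population 2 and at 8.97 and 12.09 in population 3. With all arrays, every population mean was lower in selection, but replicate 1 of control population 3 lay among the selection arrays. The difference was -1.59 (9.48 ± 0.516 in selection and 11.07 ± 0.497 in control, SD, n = 3; SE 0.337, limma p 7.17e-04, adjusted p 0.9998). Without the 2 arrays it was -1.55 (9.76 ± 0.973 in selection and 11.31 ± 0.863 in control, SD, n = 3, limma p 0.0138). Selection population 3 then stood at 10.84, above control population 3 at 10.53, so the populations overlapped. In other heads the difference was 0.64 on day 1, -0.85 on day 5, -0.07 on day 30 and -0.36 on day 50.

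The other 9 of this set differed by -0.83 to -0.44. FBtr0073535 (-0.83), FBtr0078265 (-0.80), FBtr0085589 (-0.79) and FBtr0086269 (-0.75) were the farthest from 0, and FBtr0086727 (-0.44) and FBtr0077243 (-0.46) the nearest. FBtr0076945 stood at 12.12 to 13.03 in selection heads, against 12.81 to 13.30 in control heads. Leaving out the 2 arrays hardly moved it (-0.67 and -0.65). By contrast FBtr0071354 differed by -0.39 without them, against -0.66 with all arrays, FBtr0086269 by -0.49, and FBtr0077243 by -0.30.

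Without the 2 arrays, FBtr0083768 and FBtr0082089 were among the 3 smallest p of the upward direction. FBtr0100041 (0.63, limma p 0.000958, against 0.47 with all arrays) lay between them. With all arrays FBtr0082089 was not among the 3 smallest, and its limma p was 0.00966, against 0.00181 without the 2. In the downward direction without the 2 arrays, FBtr0088928 (-0.76, limma p 0.00162), FBtr0080973 (-0.25, limma p 0.00288) and FBtr0084967 (-0.58, limma p 0.00305) came first. FBtr0088928 stood at 9.05 to 9.97 in selection heads and at 9.38 to 10.86 in control heads, with 9.38 in the control array that stood apart. These were chosen after their values were seen.

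All 20 transcripts named by p with all arrays had population means that did not overlap between regimes, as had 531 of all transcripts in the upward direction (3.19%) and 593 in the downward direction (3.56%). These counts were 961 (5.78%) and 812 (4.88%) without the 2 arrays. The rule that chose the 20 favours such transcripts, so the count is a description. At the level of single arrays, 22 transcripts did not overlap, 11 each way (0.0661% each), with differences between 0.19 and 0.89 upwards and between -0.61 and -0.19 downwards. Without the 2 arrays, 54 did not overlap upwards (0.325%) and 63 downwards (0.379%), with fewer arrays to compare. All 20 kept their direction without the 2 arrays, where 14 of them had an unadjusted p under 0.05, against 4.21% of all transcripts. The arrays left in had also served to choose the 20, so these counts are descriptions too.

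The heads of other ages were then read for the same 20 transcripts, as arrays that had not served to choose them. Selection and control differed in the day-15 direction for 17 of the 20 in day-1 heads, for 18 in day-5 heads, for 8 in day-30 heads and for 15 in day-50 heads. Over all transcripts the share with the same sign as on day 15 was 59.1%, 67.3%, 51.8% and 64.1% on these days. In day-15 abdomens 14 of the 20 had the same direction, against 54.4% of all transcripts. FBtr0083768 differed by 1.30 on day 1, 0.96 on day 5, 1.73 on day 30 and 1.61 on day 50. For FBtr0073535 the differences were -0.86 on day 1, -0.82 on day 5, -0.12 on day 30 and -0.22 on day 50. FBtr0081085 differed by 0.77 on day 1 and 0.65 on day 5, but by 0.10 on day 30 and 0.04 on day 50.

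Across all transcripts, the day-15 regime difference in heads correlated at 0.527 with that of day 5, at 0.0492 with that of day 30 and at 0.346 with that of day 50. It correlated at 0.189 with the regime difference in day-15 abdomens. Without the 2 arrays these values were 0.385, 0.109, 0.249 and -0.0149. The arrays of different ages share their populations but no sample, and the values are descriptions across transcripts.

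Earlier results of these data had named 4 transcripts for the regime effect in heads averaged over all ages, and their day-15 values are given beside these. On day 15 FBtr0086238 differed by 0.59 and FBtr0076331 by 0.71, and FBtr0080691 by -0.84 and FBtr0081161 by -0.55. Leaving out the 2 arrays gave 0.51 for FBtr0086238, 0.29 for FBtr0076331, -0.68 for FBtr0080691 and -0.27 for FBtr0081161. All 4 had the direction of the average, but that average includes the day-15 heads. In FBtr0076331 the selection arrays ran from 11.27 to 13.28 and the control arrays from 9.65 to 12.57, with the lowest control value in population 2 replicate 2.

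Several of the largest differences in size came from some of the heads or populations of a regime. With all arrays, FBtr0083768 (1.67) and FBtr0086267 (-1.59) had population means that did not overlap. Even so, a selection head of FBtr0083768 (7.91) lay at the control level. Without the 2 arrays that stood apart, the populations of FBtr0086267 overlapped. By size, 14 transcripts were at least 2-fold higher in selection (0.0841%) and 9 at least 2-fold lower (0.0541%). Population means did not overlap in 4 of the 23, against 3.19% of all transcripts upwards and 3.56% downwards. An unadjusted p under 0.05 was found for 10 of the 23, against 1.58% of all transcripts. The choice by size favours both. Without the 2 arrays 10 were at least 2-fold higher (0.0601%) and 13 at least 2-fold lower (0.0781%), and 16 of the 23 remained at least 2-fold in the same direction. With all arrays, FBtr0081781 had the largest difference of all (-2.48, SE 0.845, limma p 0.0144), and without the 2 arrays it differed by -2.17 (limma p 0.0558). It stood at 8.93, 9.09 and 9.13 in selection population 1 replicate 1 and in both replicates of selection population 2. In the other 3 selection heads it stood at 13.67, 13.06 and 14.28, against 13.22 to 14.32 in the 6 control heads. Thus 3 selection heads lay far below the control heads, and the other 3 lay within or close to the control range.

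Another 5 transcripts repeated this pattern over the 12 arrays, with a correlation of over 0.9 to FBtr0081781 and a range of over 3. These were FBtr0077300 (-2.18), FBtr0078656 (-2.40), FBtr0077922 (-1.54), FBtr0078655 (-2.42) and FBtr0075290 (-1.06), chosen after their values were seen. Without the 2 arrays that stood apart, FBtr0077300 differed by -1.81, FBtr0078656 by -2.21 and FBtr0078655 by -1.87. In each of the 6, the same 3 selection heads lay below all other arrays. FBtr0078655 stood at 8.17, 7.71 and 8.11 in these 3 heads and between 11.01 and 13.95 in the other 9. These 6 account for 6 of the 9 transcripts at least 2-fold lower in selection. In day-15 abdomens the 6 lay between 7.70 and 10.94.

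Low and high heads of FBtr0081781 occurred in both regimes at the other ages. On day 1 it stood under 10 in 1 of 6 selection heads and 4 of 6 control heads, and on day 5 in 4 selection heads and 2 control heads. On day 30 it stood under 10 in 2 selection heads and 2 control heads, and on day 50 in 1 selection head and 2 control heads. Day 15 was thus the age at which none of the 6 control heads was low, and the regime difference changed sign between ages: 2.41 on day 1, -2.31 on day 5, -0.50 on day 30 and 1.37 on day 50.

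Among the transcripts at least 2-fold higher in selection, a group of 5 with like values over the 12 arrays was highest in selection population 1. Others outside this group, such as FBtr0072660, were also highest in that population. FBtr0082636, FBtr0082637, FBtr0082638, FBtr0082679 and FBtr0082482 stood between 11.98 and 13.72 in the 2 heads of that population. FBtr0082636 lay between 11.98 and 13.38 there, against 8.45 to 11.29 in the other 10 heads, and the other 4 correlated with it at 0.954 to 0.986 over the 12 arrays. Their regime differences were 1.05 to 1.25 with all arrays, 0.96 to 1.12 without the 2 arrays that stood apart, and 0.38 to 0.60 without selection population 1. The lowest array of each was control population 2 replicate 2. They were grouped after their values were seen.

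Differences between populations of the same regime were then tested against the spread of the 2 replicates. At an adjusted p of 0.05, 14 transcripts passed (limma F test, 0.0841% of those tested), with 637 at an unadjusted p under 0.05 (3.83%). Leaving out the 2 arrays that stood apart, 48 passed (0.289%), all 14 among them, and 1081 had an unadjusted p under 0.05 (6.5%). Population means of these 14 spanned 3.03 to 5.74. Their regime differences had an unadjusted p of 0.128 or more, 9 of them being positive and 5 negative.

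FBtr0085614 had the smallest p (F 48.4, adjusted p 0.00259). It stood at 13.16 and 13.71 in selection population 1, at 8.69 and 8.52 in selection population 2 and at 9.09 and 10.32 in selection population 3. In control it stood at 10.03 and 10.72 in population 1, at 9.42 and 8.83 in population 2 and at 12.73 and 13.39 in population 3. Selection population 1 and control population 3 were therefore both high, with replicates close to each other. FBtr0085612, FBtr0086621, FBtr0086620 and FBtr0085616 followed it, with correlations of 0.966 or more over the 12 arrays. FBtr0086620 stood at 14.17 and 14.51 in selection population 1 and at 13.78 and 14.69 in control population 3, and between 9.05 and 11.34 elsewhere.

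The populations with high levels of FBtr0085614 were not the same at other ages. On day 1 control population 3 averaged 12.77 and all others 8.12 to 9.03. On day 30 selection population 1 averaged 14.13 and selection population 3 averaged 12.28, against 8.47 to 9.56 in the other 4. On day 50 all 6 populations stood between 10.66 and 14.52. In abdomens on day 15 its levels ran from 8.66 to 10.42, with selection population 1 and control population 3 again the highest at 10.42 and 10.13.

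FBtr0087653 also passed (F 43.0). Its 2 highest populations were again selection population 1 (14.29 and 14.79) and control population 3 (14.16 and 14.24), and its lowest was control population 2 (10.42 and 11.19). In the other 3 populations it stood between 12.20 and 13.24.

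Control population 2 was the lowest population in 9 of the 14 transcripts. FBtr0089324 stood at 8.45 in both of its heads, against 11.82 to 14.56 in selection heads and 12.64 to 14.37 in the other control heads. FBtr0089326 stood at 7.69 and 7.60 in the heads of control population 2, against 11.64 to 12.52 in selection heads and 11.08 to 12.59 in the other control heads. These 2 account for 2 of the 14 transcripts at least 2-fold higher in selection (1.67 and 1.58), and that difference came from control population 2. Both replicates of that population were low, so the array that stood apart was not alone. On day 5 control population 2 averaged 12.65 for FBtr0089324 and the other populations 12.85 to 14.46, so its low level was not found at every age. In abdomens on day 15 all populations stood between 8.34 and 9.59 for FBtr0089324.

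**Figure D4:**
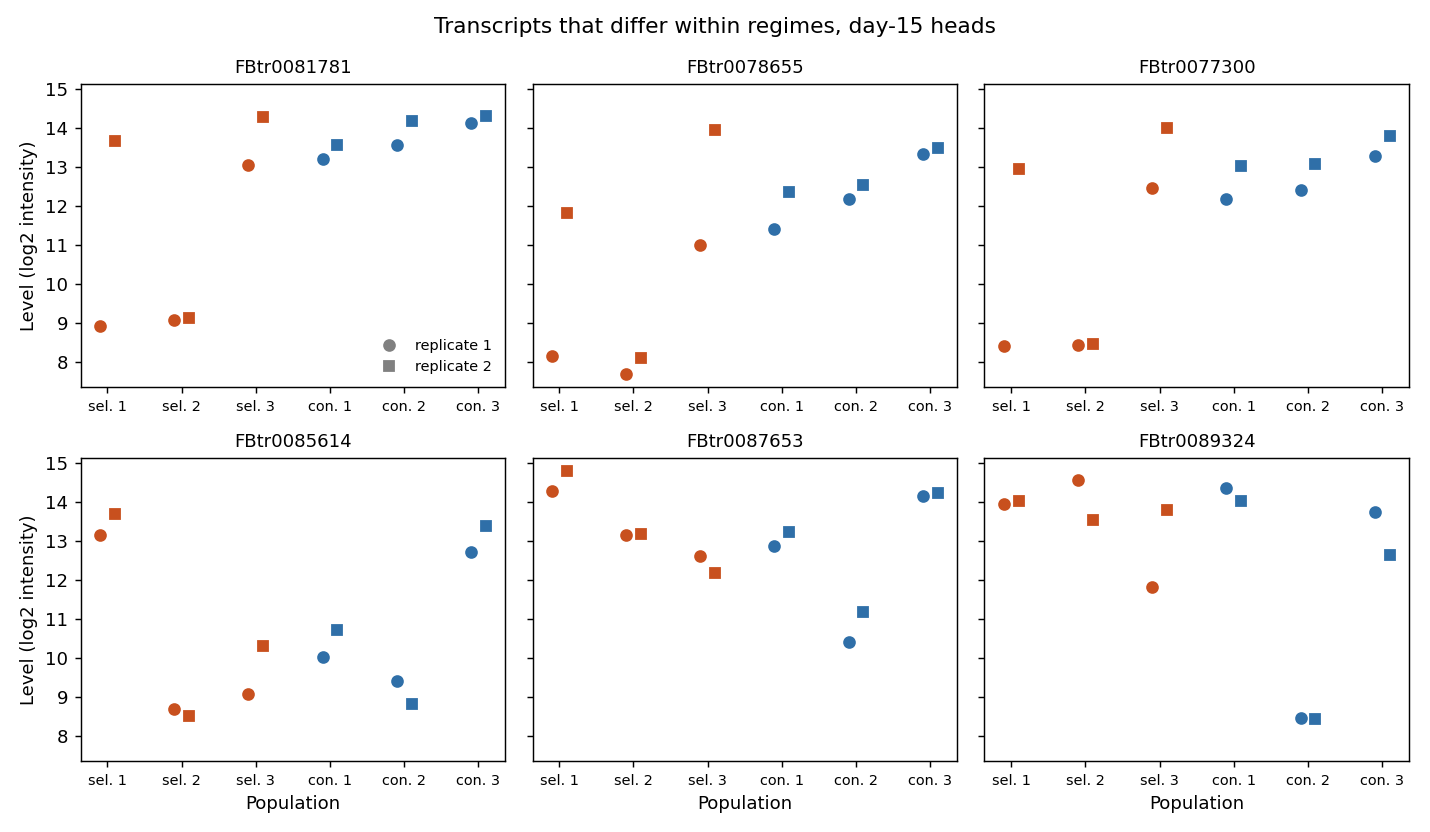
Level (log2 intensity) of 6 transcripts in the 12 day-15 heads by population, selection (sel., orange) left of control (con., blue), with circles for replicate 1 and squares for replicate 2. In the top row 3 selection heads lie below 10 and all others above 10. In the bottom row populations of 1 regime differ, such as control population 2 at 8.45 for FBtr0089324. Some replicates there lie apart, such as 11.82 and 13.79 in selection population 3 for FBtr0089324.

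The 16 transcripts tied to a gene symbol included no difference with an unadjusted p under 0.05. Their differences ran from -0.25 to 0.45 with a median of 0.11, against a median of 0.00117 over all transcripts. There were 13 positive and 3 negative differences, and without the 2 arrays 10 were positive.

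The genes of chromatin were kis, a chromatin remodeller of the CHD family, HDAC3, a histone deacetylase, SuUR, a protein of late-replicating heterochromatin, and His4r, a histone H4 encoded outside the histone cluster. The kis transcript FBtr0078144 stood at 11.67, 10.56, 11.80, 11.95, 9.51 and 11.41 in selection heads, against 11.75, 9.97, 11.01, 9.79, 10.54 and 11.18 in control heads. The ranges overlapped, and the lowest selection value was the array of population 3 that stood apart. Its difference was 0.45 (95% interval -0.31 to 1.20, limma p 0.217), and 0.56 without the 2 arrays (limma p 0.0240).

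HDAC3 differed by -0.25 (95% interval -0.84 to 0.34), SuUR by 0.18 (95% interval -0.56 to 0.92) and His4r by -0.18 (95% interval -0.49 to 0.12). None of these 3 intervals lay to one side of 0, and the differences were -0.14, 0.24 and -0.10 when the 2 arrays were left out. SuUR was 9.96 in selection population 3 replicate 1 and 11.20 to 12.33 in the other selection heads, against 10.64 to 11.87 in control heads. His4r was the most even of the group, at 14.43 to 14.90 in selection and 14.66 to 14.96 in control.

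The sle transcript FBtr0082231, for slender lobes, a nuclear protein named for its part in the mushroom bodies of the brain, had the smallest p of the 16. It was the only one of the 16 whose populations did not overlap, against 3.19% of all transcripts upwards and 3.56% downwards. It stood at 11.20, 11.47, 11.32, 11.80, 10.57 and 11.39 in selection heads, against 11.44, 10.45, 11.04, 10.45, 10.47 and 11.35 in control heads. Single arrays overlapped. The difference was 0.43 (11.29 ± 0.293 in selection and 10.86 ± 0.107 in control, SD, n = 3; limma p 0.0949) and 0.46 without the 2 arrays (p 0.0148). In heads of other ages it was -0.61 on day 1, 0.72 on day 5, -0.08 on day 30 and 0.56 on day 50.

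Of the genes of nutrient sensing, mio and Wdr24 encode subunits of GATOR2, a complex that acts upstream of the TOR kinase. The mio transcript differed by 0.04 (95% interval -0.50 to 0.59) and that of Wdr24 by 0.08 (95% interval -0.44 to 0.60). Both intervals reached similarly far to either side of 0. The Wdr24 difference was 0.16 without the 2 arrays and that of mio -0.19, with control population 1 replicate 2 at 10.11 and control population 2 replicate 2 at 8.60 as its highest and lowest arrays.

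Among the genes of ubiquitin and structure, Uba1, the enzyme that activates ubiquitin, differed by 0.16 (95% interval -0.41 to 0.73). The transcript of rdx, an adaptor of the Cullin-3 ubiquitin ligase, differed by 0.18 (95% interval -0.52 to 0.89), with 11.52 in selection population 3 replicate 1 and 12.73 to 13.68 in the other selection heads. LanA, a laminin chain of basement membranes, differed by 0.07 (95% interval -0.47 to 0.61), and alpha-Spec, a part of the membrane skeleton, by 0.28 (95% interval -0.35 to 0.92). Leaving out the 2 arrays gave 0.03 for Uba1, 0.36 for rdx, 0.21 for LanA and 0.09 for alpha-Spec. The control arrays of LanA lay within 11.61 to 11.73, the narrowest range of the group, and its selection arrays within 10.79 to 12.14.

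The transporters were Fatp1, a fatty acid transport protein, with a difference of 0.12 (95% interval -0.50 to 0.74), and NaPi-III, a phosphate transporter, with 0.12 (95% interval -0.27 to 0.52). The transcripts of fend, CG16974 and CG31178 differed by -0.07, 0.05 and 0.09. With the 2 arrays left out, NaPi-III (-0.01), Fatp1 (-0.07) and mio were negative, and fend, CG16974 and CG31178 differed by -0.11, 0.10 and 0.07.

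**Figure D5:**
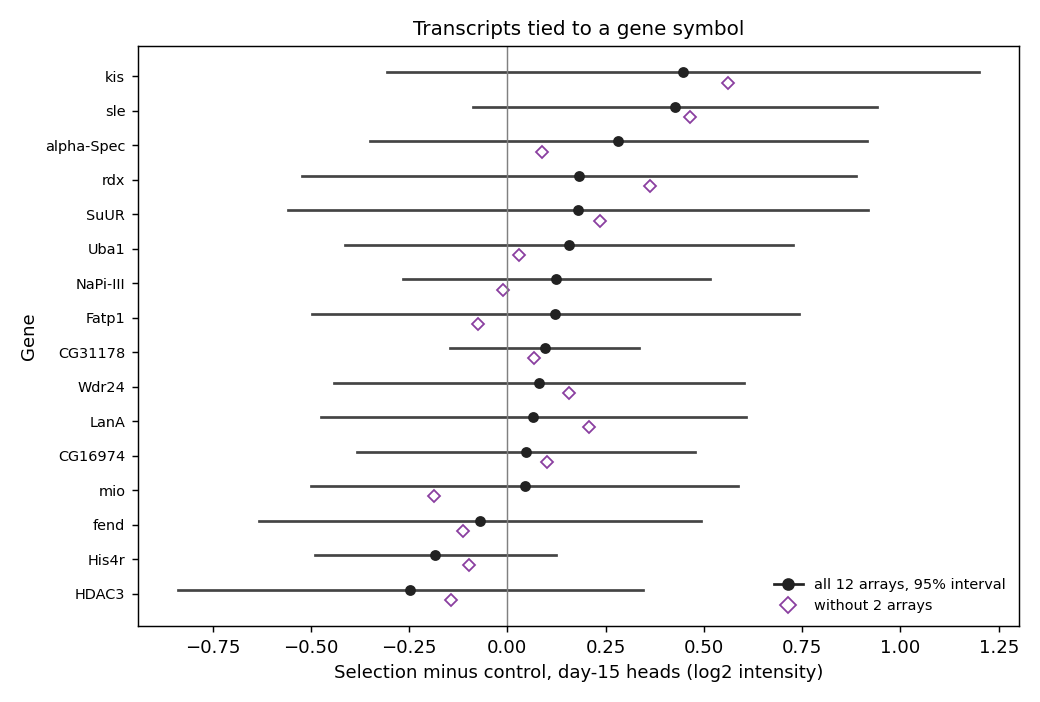
Log2 difference, selection minus control, of the 16 transcripts tied to a gene symbol in day-15 heads, with 95% intervals from all 12 arrays (filled points) and the value without the 2 arrays that stood apart (open diamonds). All 16 intervals include 0, and the estimates run from -0.25 (HDAC3) to 0.45 (kis).

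The next test asked whether the regime effect at day 15 differed from its mean over days 5, 30 and 50. No transcript passed an adjusted p of 0.05 (limma, 0%), the smallest adjusted p was 0.9997 and 248 had an unadjusted p under 0.05 (1.49%), 120 positive (0.721%) and 128 negative (0.769%). By size, the day-15 regime difference exceeded that of the other days at least 2-fold in 3 transcripts (0.018%). It fell short of it at least 2-fold in 13 (0.0781%). The count of 248 was 995 without control population 2 replicate 2 and 1118 without both arrays that stood apart. It was 988 without selection population 2, 419 without control population 2 and 683 from replicate 1 arrays alone. Among the later heads, 3 of days 30 and 50 had a profile like that of day 1, with scores of 0.917 to 1.23 on a scale where day 1 is 1, against -0.0369 to 0.0798 in the day-15 heads. Without these 3 the count was 243, and again none passed.

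Among the transcripts named for this test, FBtr0072660 had the largest excess of the day-15 regime difference, 1.38. Its selection heads stood at 9.76 to 12.61 and its control heads at 9.53 to 11.54. Its regime difference was 1.29 on day 15, against -0.31 on day 5, -0.48 on day 30 and 0.52 on day 50. With the 2 arrays left out, its excess was 0.87 and its day-15 difference 0.78 (limma p 0.253). The excess of FBtr0076571 was 0.72 and that of FBtr0086286 was 0.69. For FBtr0077606 the regime difference was lower on day 15 than on the other days (-1.21), as it was for FBtr0085589 (-0.76) and FBtr0070960 (-0.69). On its own FBtr0077606 differed by -0.49 on day 15 and by 1.20 on day 5. The excess of FBtr0076571 was 0.51 and that of FBtr0086286 0.63 with the 2 arrays left out, and the lower values were -1.32 for FBtr0077606, -0.50 for FBtr0085589 and -0.91 for FBtr0070960.

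Regime effects in heads were also set against those in abdomens of the same age. No transcript passed an adjusted p of 0.05 (limma, 0%), the smallest adjusted p was 0.978, and 497 had an unadjusted p under 0.05 (2.99%), of which 127 had the larger value in head (0.763%) and 370 the smaller (2.22%). By size, 17 were at least 2-fold larger in head (0.102%) and 64 at least 2-fold smaller (0.385%). The count of 497 was 321 without selection population 3 and 197 from replicate 1 arrays alone. Over all alternatives it ran from 197 to 1133. FBtr0290137 differed by -0.30 in heads and 0.80 in abdomens, a difference between tissues of -1.10. FBtr0086625 differed by -0.41 in heads and 0.60 in abdomens, a difference between tissues of -1.01, and FBtr0084284 by -0.07 in heads and 0.87 in abdomens. In the other direction FBtr0070720 differed by 0.15 in heads and -0.82 in abdomens, FBtr0072772 by 0.06 in heads and -0.63 in abdomens, and FBtr0075046 by 0.85 in heads and 0.04 in abdomens. The difference between tissues of FBtr0075046 was 0.80, and 0.32 without the 2 arrays, whereas the other 5 kept their sizes within 1.5 times.

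The position of the day-15 heads on the path from day 5 to day 50 was scored from 200 transcripts each way, chosen on other population numbers, with day 5 at 0 and day 50 at 1. Selection populations 1, 2 and 3 scored 0.589, 0.378 and 0.614, and control populations 1, 2 and 3 scored 0.387, 0.369 and 0.623. The means were 0.527 ± 0.130 in selection and 0.460 ± 0.142 in control (SD, n = 3), a difference of 0.0674 with a two-sided exact permutation p of 0.8, where 0.1 is the smallest possible. The regimes overlapped, with the highest score in control population 3 and the lowest in control population 2. Without control population 1 the difference was -0.00995, and without the 3 later heads with a day-1-like profile it was 0.0693.

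The labels state that the populations were founded as 3 pairs of a selection and a control population, but not that the population number marks the pair. With pairs taken by number and all arrays, no transcript passed and 226 had an unadjusted p under 0.05 (1.36%). With the same pairs, and without the 2 arrays, no transcript passed and 1263 had an unadjusted p under 0.05 (7.59%), 677 of them positive and 586 negative. FBtr0083768 then had an adjusted p of 0.0517, with differences of 0.95, 1.88 and 1.49 in pairs 1, 2 and 3. The next smallest adjusted p was 0.231, for FBtr0079242, with differences of 0.83, 0.87 and 0.62 in the 3 pairs.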

How the data were processed

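Each array gave 1 value per transcript. Per the submitters' processing notes the authors used RMA, and the deposited values were log2 intensities. RMA corrects background, normalizes arrays to common quantiles and summarizes probes. Which RMA version, genome build and annotation were used, and which arrays shared a normalization, is not given in the sources used here. Precision is limited by the number of arrays, which have no read depth.

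No filter was set, and all 16637 transcripts were tested. Replicates were averaged, and the regimes, with 3 populations each, were compared by limma 3.58.1 in R 4.3.3 (two-sided, intensity trend, Benjamini-Hochberg over all transcripts, threshold 0.05). The same fit was made on the difference between day 15 and the mean of days 5, 30 and 50, and between head and abdomen. A limma F test on the 12 arrays compared populations within regimes. The fits were tested on simulated data. Alternatives were another normalization, a signal filter, no trend, left-out arrays and populations, single replicates and a block by population number.

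Transcripts were named by rule: up to 12 each way past the threshold, or, where under 3 passed, the 10 of smallest p in that direction, 3 each way for the difference tests, the 3 with the smallest F-test p and every transcript with a gene symbol. Others are described as chosen after their values were seen, including 3 each way with the smallest p without the 2 arrays and 4 named in earlier results. The comparison, the members and the lists were chosen with earlier results of these data known. Gene symbols came from RefSeq synonyms (assembly Release 6 plus ISO1 MT), which gave 16 transcripts 1 symbol, 8 of them by part of a synonym, and 28 matched several genes. No gene list had 3 named members, so none was described.

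Same-numbered selection and control populations deviated from their regime means with correlations of 0.0981, -0.139 and -0.194 for numbers 1, 2 and 3, and of 0.409, 0.392 and 0.140 without the 2 arrays that stood apart. As not every value exceeded 0.1 with all arrays, the unpaired fit was kept as the main one. Without the 2 arrays every value exceeded 0.1, but the unpaired fit was used there too, with the paired fit as an alternative.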

Additional observations from a re-analysis of the deposited data

Results flagged for a closer look

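In 84 groups of 6 arrays, one array was set apart from the other 5 by a gap that was large for the range (Dixon's criterion) 19 times. Chance gives about 1 such case in 20 independent groups. These groups reuse the same day-15 heads and include the correlations by which the 2 arrays stood apart. Some of their transcripts were named by p values that these arrays entered, so the chance rate cannot be applied to the 19 cases. Of the 19 cases, 10 fell on selection population 3 replicate 1 and 8 on control population 2 replicate 2.

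The first of these arrays had an SD over transcripts of 1.77 and a median correlation with the other heads of 0.921. The second had 1.86 and 0.912. In the other 10 arrays the SD was 1.95 to 2.01. The mean of the head-high transcripts was lowest in selection population 3 replicate 1 (13.85). The abdomen-high transcripts were highest in their regime in these same arrays, at 8.33 in the selection array and 8.39 in the control array.

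Transcripts named above carried the remaining cases. FBtr0082071 stood at 10.89 in the selection array and 7.87 in the control array, and FBtr0075046 at 10.97 and 8.14 in the same order. FBtr0273227 stood at 9.40, FBtr0077014 (LanA) at 10.79, FBtr0078767 (HDAC3) at 10.45 and FBtr0084138 (CG31178) at 8.02 in the selection array. FBtr0080133 (Fatp1) stood at 11.26, FBtr0088499 (Uba1) at 11.65 and FBtr0072789 (alpha-Spec) at 9.59 in the control array. The 1 case on another array was alpha-Spec in selection population 1 replicate 2, at 10.02, against 10.84 to 11.29 in the other selection heads. What set these arrays apart was not tested.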

How the results depend on the processing

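No transcript passed an adjusted p of 0.05 for the regime effect, for day 15 against other days or for head against abdomen in any alternative run. Counts at an unadjusted p under 0.05 ran from 135 to 1263 for the regime effect (263 in the fit reported), from 88 to 1426 for day 15 against other days (248) and from 197 to 1133 for head against abdomen (497). With the population number as a replicate block and all arrays, 0 transcripts passed for the regime effect and 226 had an unadjusted p under 0.05 (123 for day 15 against other days, 1088 for head against abdomen), and this pairing changed no call. With the 2 arrays left out as well, the smallest adjusted p was 0.0517; this setting and those without later heads of a day-1-like profile were added after seeing the data. For populations within regimes, 22 transcripts passed among those above the median signal and 34 without control population 2 and selection population 3, against 14 in the fit reported; 48 passed without the 2 arrays, a setting also added after seeing the data. Its count at an unadjusted p under 0.05 ran from 389 to 1552 (637). The difference in age score ran from -0.00995 to 0.164 when 1 population was left out, the lower value without control population 1. Of 392 values of the 20 transcripts with the smallest p under the alternatives, 391 kept their sign, and of 318 values of the transcripts with gene symbols 277 did. With 3 populations per regime, the median 95% interval of 0.484 to either side limits what could be detected.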
